A study of Caenorhabditis elegans with 2 samples.

Results

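The genes described here are 10 that encode subunits and regulators of heterotrimeric G proteins in C. elegans: the beta subunit genes gpb-1 and gpb-2, the gamma subunit gene gpc-2, the alpha subunit genes goa-1, egl-30, gsa-1 and gpa-12, the regulators of G protein signalling (RGS) egl-10 and eat-16, and ric-8. They were chosen from 19985 annotated protein-coding genes by their function and with the peak lists of this experiment in view, so their counts and ranks of peaks are descriptions, and no test was made on them. The experiment was a chromatin immunoprecipitation with sequencing of CEH-14, a LIM homeobox transcription factor, in whole late embryos of hermaphrodite strain OP315. Embryos were taken 5 hours after synchronization by egg bleaching, and every worm carried an insertion from which CEH-14 is stably made with GFP-FLAG at its C-terminus. Precipitation used an antibody to GFP. All samples form 1 group of that strain, stage and tag, in 2 biological replicates. No input, untagged worm or other genotype was analysed here, and chromatin came from all cells of the embryo, so a site bound in few cells and a site bound weakly in many cannot be told apart.

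Heterotrimeric G proteins carry signals from receptors at the cell surface. An alpha subunit that has bound GTP separates from the beta and gamma pair, and each part then acts on effectors until the alpha subunit hydrolyses its GTP, a step that RGS proteins speed up. In worm neurons the Gq alpha subunit EGL-30 promotes neurotransmitter release and the Go alpha subunit GOA-1 opposes it, while in the early embryo GOA-1, GPB-1 and RIC-8 are known for positioning the mitotic spindle.

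The values are those of the authors' peak lists in ce11 coordinates. One list holds the 1681 peaks that passed an irreproducible discovery rate (IDR) threshold, a cut based on both replicates. The relaxed lists, which also hold background, have 21766 entries for both replicates pooled, 21217 for replicate 1 and 19577 for replicate 2. Each entry has a signal value, whose scale differs between lists, and is ranked here by that value, with 1 the strongest. No read numbers come with the entries, so their depth is unknown.

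At 6 of the 10 genes an IDR summit lay within 1000 bases of an annotated start: gpb-1, gpb-2, gpc-2, egl-30, gsa-1 and eat-16. Of all protein-coding genes, 6.82% had one. The same 6 genes had one among the 1681 strongest entries of either replicate alone. Of all protein-coding genes, 6.63% had one there in replicate 1 and 6.59% in replicate 2. From 5000 bases upstream through the gene body, 9 of the 10 genes had an IDR summit, against 13.7% of all protein-coding genes, and gpa-12 had none. In that window 5 of the 10 had 2 or more summits, against 1.93% of all. Since these lists helped to choose the genes, nothing is read from these shares. The genes were also longer than most, with a median of 5676 bases and 2 annotated starts, against 2026 bases and 1 start over all protein-coding genes. Whether this bears on the shares was not tested.

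In total the 10 genes held 19 IDR peaks, none of them shared between the genes. A start of the gene was within 1000 bases for 11 of them, and 15 lay upstream of the gene, 3 in introns and 1 in an exon annotated as 5′ untranslated. No protein-coding start of any gene lay within 1000 bases of 6 of the 19 (31.6%), against 37% of all IDR peaks. The relaxed lists met more of the genes: 8 of 10 had an entry within 1000 bases of a start in the pooled list (42.1% of all protein-coding genes), 8 in replicate 1 (41.6% of all) and 8 in replicate 2 (39.8% of all).

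**Figure D1:**
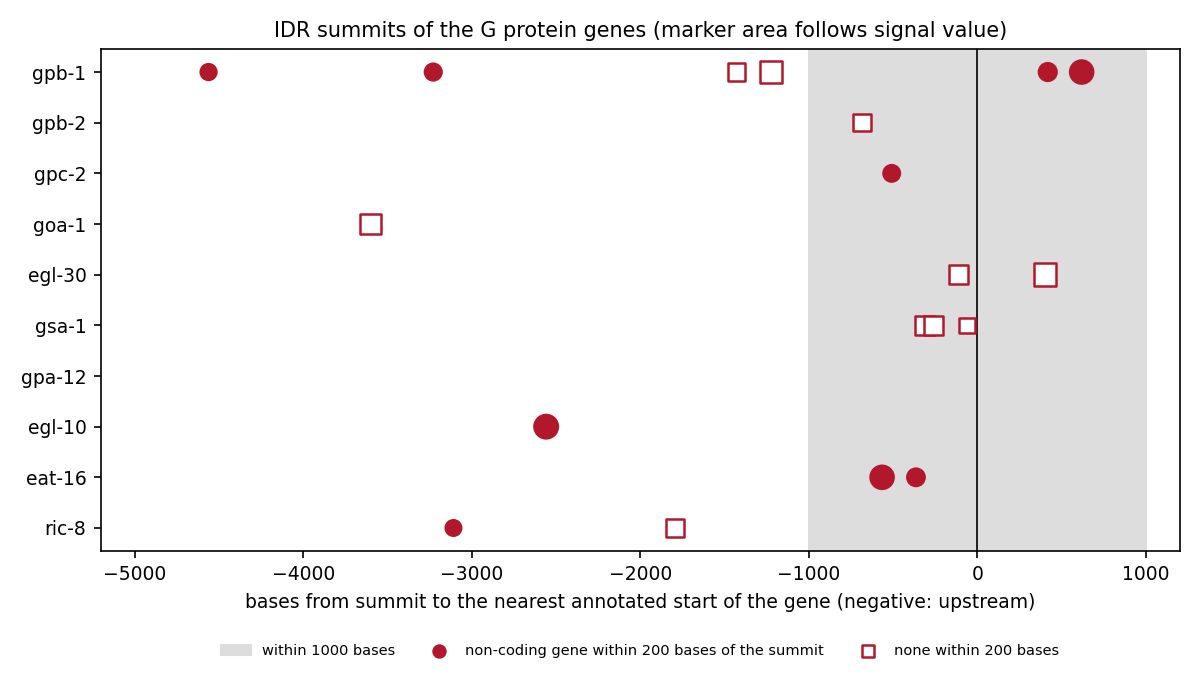
Distance from each of the 19 IDR summits to the nearest annotated start of its gene, in bases (x axis, negative upstream), for the 10 genes (rows). Marker area follows the signal value, filled circles have a non-coding gene within 200 bases of the summit, and the grey band spans 1000 bases to each side. All 11 summits inside the band belong to 6 genes, and gpa-12 has no marker.

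The beta subunit gene gpb-1 held 6 IDR peaks, the most of the 10 genes, on both sides of its first exons. GPB-1 is the beta subunit that pairs with the conventional alpha subunits. The gene (WBGene00001679) lies on the minus strand of II at 11742811 to 11748611 and has 6 annotated starts spread over 3928 bases. A pair of overlapping peaks lay in the intron that follows the upstream first exons. Their summits were 1579 and 1378 bases downstream of the most upstream start, with signal values of 175.1 (rank 223) and 103.2 (rank 831). A second overlapping pair lay upstream, 1223 and 1429 bases from that start, with signal values of 159.9 (rank 281) and 101.3 (rank 870). Farther upstream were single peaks at 3229 bases, with 91.4 (rank 1075), and at 4562 bases, with 81.85 (rank 1352). No other protein-coding gene lies among these upstream peaks: the next one, F44E5.4, is 8496 bases away and points in the same direction, while the short F44E5.17 lies inside the 5′ end of gpb-1. Non-coding genes do lie there, with F13D12.11 under the strongest intronic summit and 4 others within 200 bases of the farthest upstream one. The summits of each overlapping pair were 201 and 206 bases apart, so that the 6 peaks covered 4 separate regions.

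The sequences around 4 of the gpb-1 summits are shown because they hold the strongest peaks of the gene and both kinds of motif met there. Each is 101 bases of the plus strand of ce11, from the RefSeq copy of the same assembly, with the summit in the middle. The gene is on the other strand. Capitals mark TAATTA or TAATTG, cores known to be bound by homeodomain proteins, and GAGAGA, on either strand.
gpb-1 rank 223, chrII:11746982-11747082: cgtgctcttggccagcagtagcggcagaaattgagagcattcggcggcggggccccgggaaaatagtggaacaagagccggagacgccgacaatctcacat
gpb-1 rank 281, chrII:11749784-11749884: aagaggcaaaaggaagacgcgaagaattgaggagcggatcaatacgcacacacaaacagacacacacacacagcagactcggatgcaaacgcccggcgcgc
gpb-1 rank 870, chrII:11749990-11750090: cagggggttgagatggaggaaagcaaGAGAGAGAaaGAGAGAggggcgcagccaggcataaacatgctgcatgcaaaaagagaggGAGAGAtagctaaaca
gpb-1 rank 1352, chrII:11753123-11753223: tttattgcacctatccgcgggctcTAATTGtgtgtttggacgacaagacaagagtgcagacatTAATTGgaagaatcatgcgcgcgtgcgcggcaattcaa
The strongest pair hold none of these motifs. The intronic summit has 59.4% GC, and the upstream summit has a run of alternating c and a. The summit with rank 870 holds GAGAGA at 4 positions, 2 of which overlap, and the farthest one holds TAATTG at 2 positions.

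Both replicates met each of the 4 gpb-1 regions, with different weight. For the strongest intronic peak the nearest entry of replicate 1 had a signal value of 85.45 (rank 203) and that of replicate 2 had 89.68 (rank 260). The stronger upstream peak had 94.07 (rank 154) in replicate 1 and 71.91 (rank 485) in replicate 2. The peaks at 3229 and 4562 bases ranked 1692 and 2036 in replicate 1, and 803 and 1189 in replicate 2. Both thus lay below the 1681 strongest entries in replicate 1 and among them in replicate 2. With the 1681 strongest entries of a replicate in place of the IDR peaks, gpb-1 had 3 in replicate 1 and 5 in replicate 2. Weaker entries lay over the 3′ end of the gene, outside the IDR peaks, at best with rank 2578 in replicate 1 and 5159 in replicate 2.

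**Figure D2:**
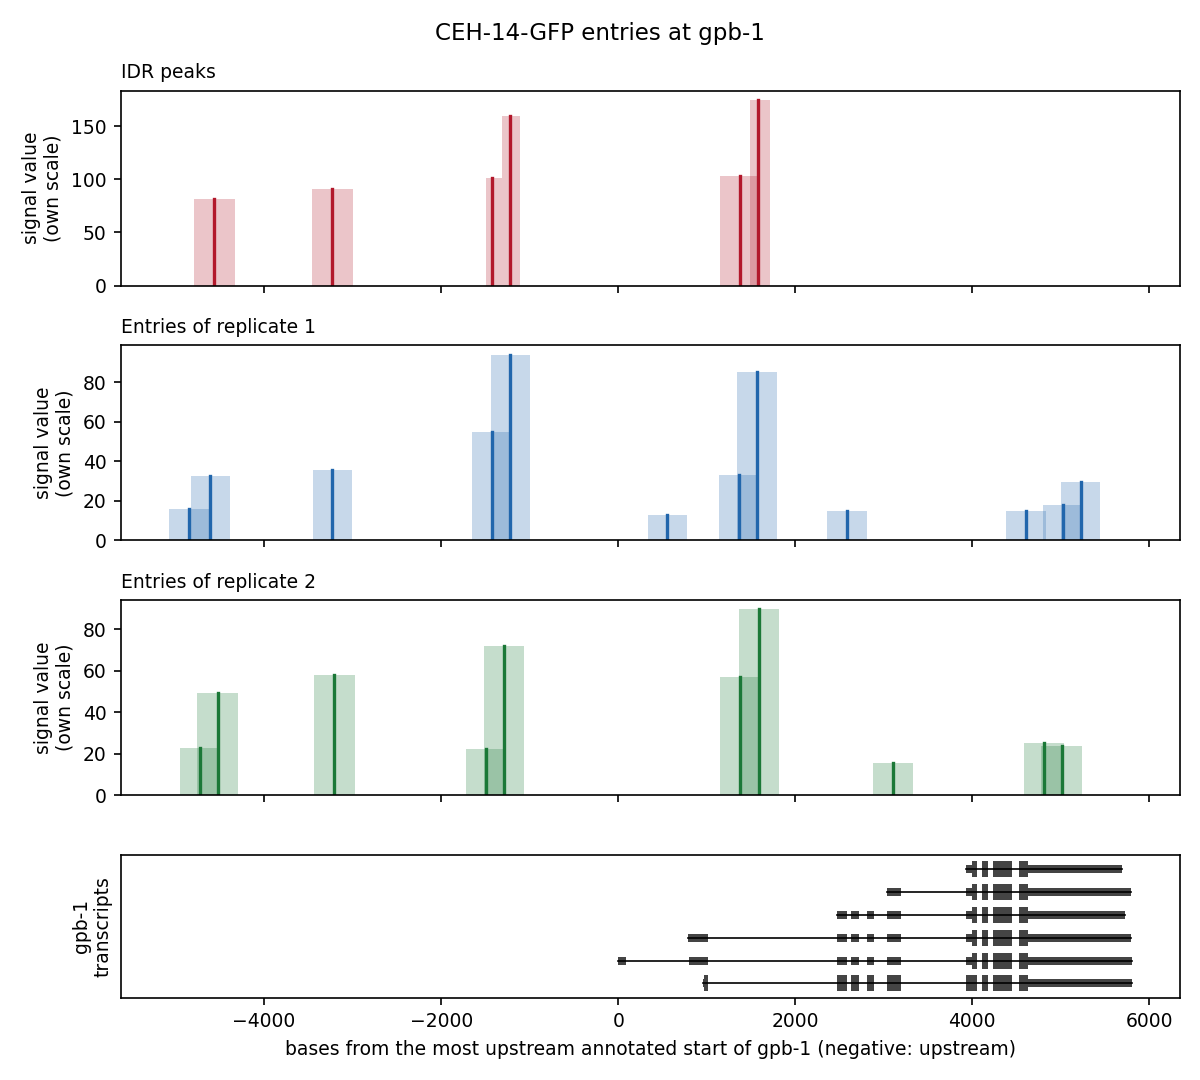
Entries at gpb-1 by distance in bases from its most upstream start (x axis, negative upstream), with the authors' signal value (y axis, with a different scale per list) of the 6 IDR peaks, the 12 entries of replicate 1 and the 10 entries of replicate 2. Shaded boxes span each entry, lines mark summits, and the bottom panel shows the 6 transcripts, with coding parts as thick bars. The IDR peaks fall in 4 regions, 3 upstream of the gene and 1 in the intron after the upstream first exons.

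Among all protein-coding genes, 4 had 6 IDR summits from 5000 bases upstream through the gene body, and none had more. These are gpb-1, ppfr-1, COX3 and WBGene00010964, of which the last 2 are mitochondrial. By separate regions gpb-1 counted 4, as did ppfr-1, and 14 genes had 4 or more, 8 of them nuclear. The other 6 nuclear genes were Y111B2A.12, pqn-41, zfp-1, Y56A3A.7, ell-1 and sos-1. These had lengths of 13030 to 33613 bases, and ppfr-1 had 25884, against 5801 for gpb-1.

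**Figure D3:**
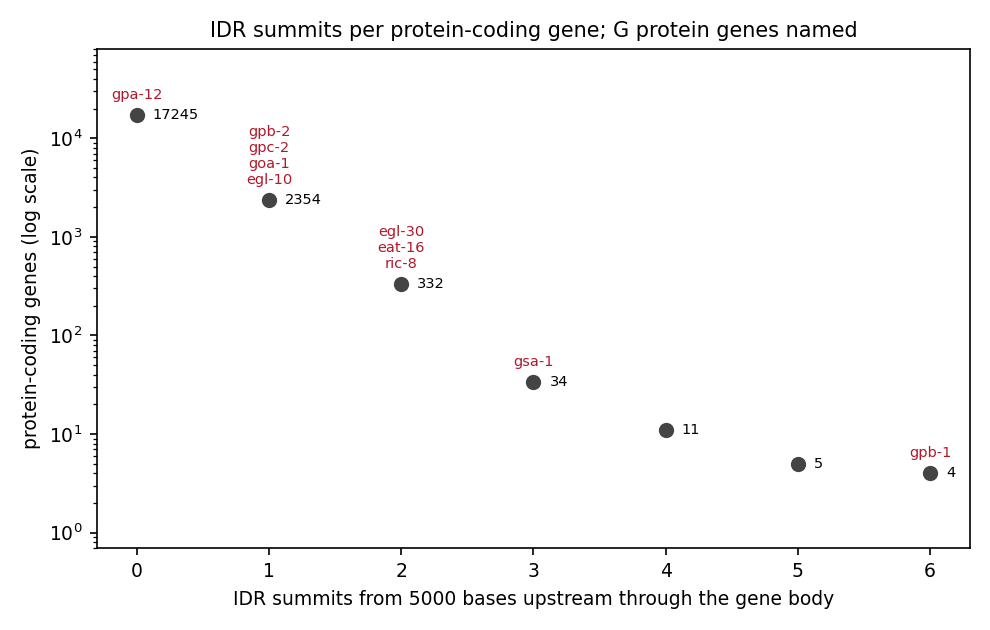
Number of protein-coding genes (y axis, log scale) by their number of IDR summits from 5000 bases upstream through the gene body (x axis), with the 10 G protein genes named at their number. No summit was met at 17245 genes, gpa-12 among them, and 6 at 4 genes, gpb-1 among them.

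The second beta subunit gene, gpb-2, had 1 peak. GPB-2 resembles the vertebrate beta subunit that binds RGS proteins and is known to act with EGL-10 and EAT-16. The peak was upstream of the gene (chromosome I, minus strand, 7318290 to 7321085), 685 bases from the start, with a signal value of 99.5 (rank 913). Replicate 1 had 43.94 (rank 1068) and replicate 2 had 59.91 (rank 744), so both placed it among the 1681 strongest. Of the IDR summits counted within 1000 bases of a start it was the farthest out, and the nearest beyond the limit was the gpb-1 summit at 1223 bases. The nearest IDR peak outside the window of gpb-2 lay 48984 bases away.

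The gamma subunit gene gpc-2 also had 1 peak. GPC-2 is the gamma subunit that accompanies GPB-1 in the embryo. The gene is the shortest of the 10, with 416 bases (I, 6757763 to 6758178, plus strand). Its peak lay 509 bases upstream, with a signal value of 89.14 (rank 1138), between gpc-2 and the divergent gene hrpf-1, 1415 bases apart. A non-coding gene, F08B6.6, began 79 bases from the summit. In replicate 1 the peak had 49.97 (rank 789) and in replicate 2 it had 43.25 (rank 1556).

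Of the 4 alpha subunit genes, egl-30 and gsa-1 had IDR peaks at their starts, goa-1 had one far upstream and gpa-12 had none. At egl-30, the Gq gene (WBGene00001196, I, 1835661 to 1841965, plus strand), a peak 113 bases upstream of the first start had 117 (rank 630). Its summit lay between egl-30 and rpl-27, a gene in the same direction that ends 223 bases upstream. A stronger and narrower peak, 159 bases wide, lay 401 bases downstream of the second start with 167.2 (rank 248), in an exon annotated as 5′ untranslated. The replicates ordered these differently. The upstream peak had 64.64 (rank 420) in replicate 1 and 57.7 (rank 804) in replicate 2, and the downstream one had 64.32 (rank 427) in replicate 1 and 102.8 (rank 177) in replicate 2. The values in replicate 1 were thus nearly equal, while in replicate 2 the downstream peak led.

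The Gs gene gsa-1, whose product activates adenylyl cyclase, had 3 IDR peaks (WBGene00001745, I, 1068484 to 1074343, plus strand). The strongest lay in an intron, 312 bases upstream of the second start, with 124 (rank 526). An overlapping pair lay 262 and 61 bases upstream of the first start, with 121.5 (rank 568) and 79.49 (rank 1425). Peaks therefore lay just upstream of each of its 2 starts. For the intronic peak replicate 1 had 58.83 (rank 543) and replicate 2 had 78.09 (rank 378). For the stronger of the pair replicate 1 had 56.93 (rank 588) and replicate 2 had 73.2 (rank 459). The weaker of the pair had an entry of its own in replicate 2 only, with 29.98 (rank 3402). The strongest pooled entry of the 10 genes outside the IDR list was also at gsa-1, 97 bases from the second start, with 60.59 (rank 2463), while the weakest entry inside the list was at ric-8, with 79.12 (rank 1443).

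The Go gene goa-1 (WBGene00001648, I, 7522116 to 7526716, plus strand) had no IDR summit within 1000 bases of its start. Its single IDR peak lay 3601 bases upstream, with 137.5 (rank 401), between goa-1 and the divergent gene C26C6.9, 6990 bases apart. That summit was 3389 bases from the start of C26C6.9 and 307 from that of a snoRNA gene, C26C6.13. Replicate 1 had 60.65 (rank 501) and replicate 2 had 78.11 (rank 377). At the start itself the entries were weak. The pooled list had 40.83 (rank 5777) 828 bases away and 34.95 (rank 8305) 63 bases away. The strongest entry there in replicate 1 was 62 bases from the start with 24.63 (rank 4025), and in replicate 2 it was 899 bases away with 27.96 (rank 4019).

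The gene gpa-12 (WBGene00001674, X, 9243557 to 9249107, plus strand), a further alpha subunit gene, had no entry within 1000 bases of a start in any list. The strongest pooled entry in its window lay 1603 bases upstream with 44.07 (rank 4826), and was 269 bases from the start of the divergent neighbour lgc-4. The strongest entry of replicate 1 was at that place, with rank 3288. In replicate 2 the strongest lay 4718 bases upstream, with rank 4957.

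Both RGS genes had a strong upstream peak. EAT-16 is known to act on EGL-30 and EGL-10 on GOA-1. At eat-16 (WBGene00001145, I, 9722716 to 9726284, plus strand) overlapping peaks lay 566 and 365 bases upstream, with 175.6 (rank 220) and 99.15 (rank 922). The first had 92.9 (rank 160) in replicate 1 and 85.73 (rank 288) in replicate 2, and the second had 61.1 (rank 487) and 42.61 (rank 1610). Non-coding genes on opposite strands, C16C2.8 and C16C2.7, lay under both summits or within 52 bases of them.

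The strongest IDR peak of the 10 genes, by the signal value of the IDR list, was that of egl-10 (WBGene00001179, V, 12453290 to 12463008, minus strand). It lay 2559 bases upstream of the gene, with 180.4 (rank 203), 5 bases from the non-coding gene F28C1.14. The replicates placed it almost alike, with 82.28 (rank 226) in replicate 1 and 99.3 (rank 201) in replicate 2. In neither replicate was it the strongest entry of the 10 genes. That was an entry of gpb-1 in replicate 1 (rank 154) and of egl-30 in replicate 2 (rank 177). At the starts of egl-10 the pooled list and replicate 1 had no entry, and replicate 2 had one 924 bases away with rank 9740. The 101 bases around the summit, on the plus strand, are shown because this peak led the 10 genes in the IDR list. Capitals mark GAGAGA, which occurs at 3 positions, on both strands.
egl-10 rank 203, chrV:12465517-12465617: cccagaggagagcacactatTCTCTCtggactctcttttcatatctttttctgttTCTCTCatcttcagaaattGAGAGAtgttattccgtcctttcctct

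The peaks counted for ric-8 lay nearer to other genes. RIC-8 is a receptor-independent activator of alpha subunits and a chaperone for them. The gene (WBGene00004367) lies on IV at 2642973 to 2650111, plus strand. A peak 1795 bases upstream, with 96.84 (rank 973), had its summit 53 bases from the start of the spindle checkpoint gene mdf-2, between mdf-2 and the divergent gene nduv-3. The other, 3109 bases upstream with 79.12 (rank 1443), lay within the tRNA gene WBGene00023188. The first had 31.82 (rank 2176) in replicate 1 and 59.99 (rank 742) in replicate 2, while the second had 40.18 (rank 1320) in replicate 1 and 37.46 (rank 2058) in replicate 2. Neither was among the 1681 strongest in both. At the start of ric-8 itself the pooled list had 29.45 (rank 12403) 789 bases away, replicate 1 had rank 13590 and replicate 2 had no entry. The first of these summits, in 101 bases of the plus strand, is the only one of the 19 with TAATTA, in capitals, within 50 bases.
ric-8 rank 973, chrIV:2641128-2641228: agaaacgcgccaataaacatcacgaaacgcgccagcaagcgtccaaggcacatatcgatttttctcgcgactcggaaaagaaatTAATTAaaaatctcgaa

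All 19 peaks overlapped an entry in both replicates, as did 1671 of all 1681 IDR peaks. The IDR list was made from the relaxed lists, so this overlap was largely built in. The ranks often differed. Taking for each peak the overlapping entry with the nearest summit, the ranks lay within 1.5 times of each other for 6 of the 19 (31.6%), against 41.5% of all IDR peaks. Among the 1681 strongest of replicate 1 were 15 of the 19 (78.9%, against 81.5% of all), among those of replicate 2 were 16 (84.2%, against 83.5%), and among both were 12 (63.2%, against 67.2%). The rank was higher in replicate 1 for 9 peaks and in replicate 2 for 10, so neither replicate led. The largest gap was at the second upstream gpb-1 peak, with rank 648 in replicate 1 and 6859 in replicate 2, where a single stronger entry spans the pair. When the strongest overlapping entry was taken instead, so that overlapping peaks could share one entry, 15 peaks were among the strongest of both replicates (78.9%), against 71.2% of all IDR peaks.

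**Figure D4:**
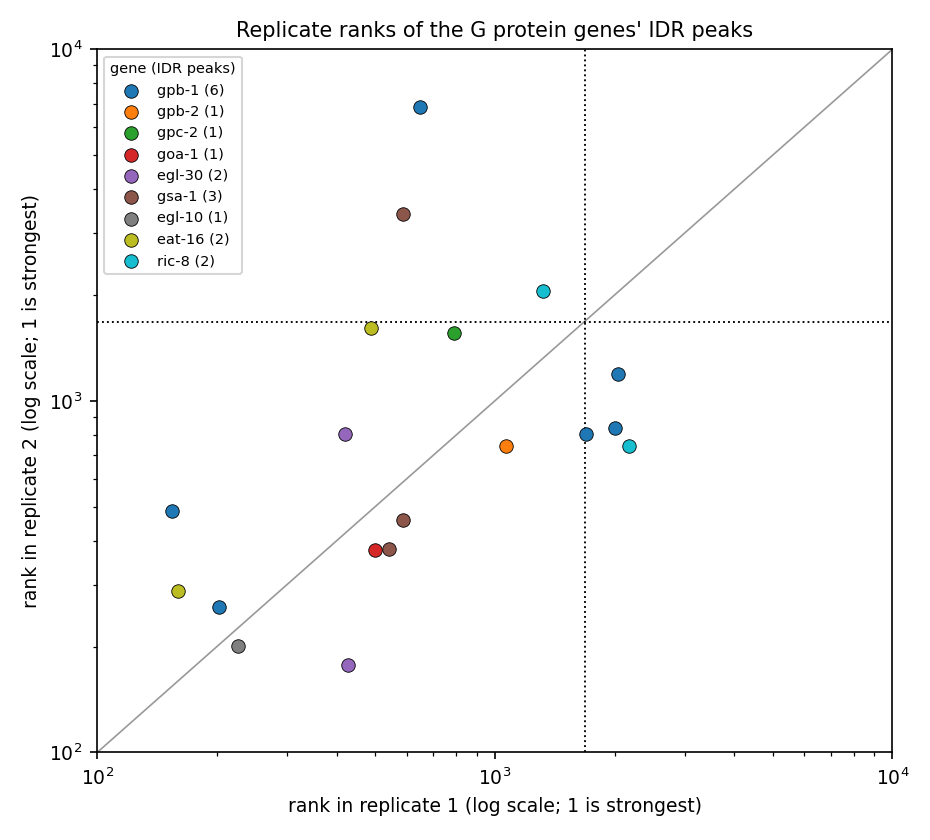
Rank of the 19 IDR peaks in replicate 1 (x axis) and replicate 2 (y axis), both log scales with 1 the strongest, from the overlapping entry with the nearest summit. The dotted lines mark rank 1681, the number of IDR peaks, the grey line marks equal ranks, and colours give the gene. The 12 peaks below and left of both dotted lines come from 8 genes.

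The 19 peaks resembled the IDR peaks as a whole in strength and differed from them in several features. The lists helped to choose the genes, so these values are descriptions too. The 19 peaks had a median signal value of 103.2 and a median rank of 831, against 102.8 and 841 over all 1681. Of the 19, 8 overlapped another IDR peak (42.1%), against 10.7% of all, and all 8 are the pairs at gpb-1, gsa-1 and eat-16. The summits had 51.7 ± 6.8% GC in 101 bases and 44.1 ± 9.7% in flanks centred 300 bases away, against 47.8 ± 8.7% and 36.2 ± 6.6% over all IDR peaks (mean and SD over peaks). GC was higher at the summit than in the flanks for 17 of the 19, and this was not counted over all IDR peaks. Their mean was also higher at the summit, and by more than that of the 19. A non-coding gene lay within 200 bases of 9 of the 19 summits (47.4%), against 29.3% of all. These were mostly of the annotation's general ncRNA class: a tRNA, snoRNA or snRNA gene was that near at 1 of the 19 (5.26%), against 12.8%. When each summit was given only to the single nearest start of any gene, non-coding genes included, 3 of the 10 genes kept an IDR summit within 1000 bases (gpb-2, egl-30 and gsa-1), against 3.91% of all protein-coding genes. The summits of 1 gene share their source, overlapping peaks were each counted, and none of these differences was tested.

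GAGAGA lay within 50 bases of 5 of the 19 summits (26.3%, Wilson 95% interval 11.8 to 48.8%), against 25.7% of all IDR summits. They were at gpb-1, egl-30 (2 summits), gsa-1 and egl-10. With 100 bases either side GAGAGA was met at 12 of the 19, against 40.9% of all IDR peaks, so the likeness is that of the 50-base window. TAATTA was met at 1 (5.26%, interval 0.935 to 24.6%, against 5.89%) and TAATTG at 1 (5.26%, same interval, against 6.96%). Within 50 bases each interval includes the share of all IDR peaks, and no interval was computed for 100 bases. The lists helped to choose the genes, so this was not taken as a test. The intervals are wide and treat the summits as separate, though 8 of the 19 peaks overlap another IDR peak.

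Of 73 further genes listed for the pathway by role or protein domain, 9 (12.3%) had an IDR summit within 1000 bases of a start. Of all protein-coding genes, 6.82% had one. By role these were 1 of 17 other alpha subunit genes, the gamma subunit gene gpc-1, 2 of 13 RGS domain genes, 0 of 4 receptor-independent regulators, 2 of 13 effector and second messenger genes, 1 of 3 receptor kinase and arrestin genes and 2 of 22 metabotropic receptor genes. The pooled list had an entry there at 46 of the 73 (63%), against 42.1% of all. The list was drawn up with results of these data known, so these shares are descriptions too.

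The strongest of these was at rgs-1, a further RGS gene, 319 bases from its start, with 169.3 (rank 242). Replicate 1 had 69.98 (rank 337) and replicate 2 had 100.2 (rank 193). Next came rgs-6 with 146.3 (rank 350) and acy-1, the adenylyl cyclase activated by GSA-1, with 139.9 (rank 385). The acy-1 peak had 62.63 (rank 460) in replicate 1 and 77.35 (rank 393) in replicate 2. The alpha subunit gene gpa-7 had 134.8 (rank 418), with 74.48 (rank 285) in replicate 1 and 73.41 (rank 456) in replicate 2. Weaker peaks lay at the tyramine receptor gene ser-2 (rank 1039), the receptor kinase gene grk-1 (1208), the protein kinase A catalytic subunit gene kin-1 (1235), gpc-1 (1375) and the octopamine receptor gene ser-3 (1492). From 5000 bases upstream through the gene body, 21 of the 73 had an IDR summit (28.8%, against 13.7% of all), and rgs-4 was the only one with 2. The Gq effectors egl-8, the phospholipase C beta gene, and unc-73, the Trio gene, had none within 1000 bases of a start.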

How the data were processed

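Both replicates and the lists made from them were used. Per the sample records deposited with them, the relaxed lists were made by the authors from alignments plus 1 more file of unstated kind, and the IDR list from those lists. No source used here names the aligner, peak caller or IDR cut-off. Column 7, the signal value, is the authors' own; its normalization is not stated, and it was used only to rank and describe entries within a list. The summit is the deposited start plus the offset in column 10. Gene models were those of Ensembl release 115 on WBcel235, the sequence of ce11, and no entry passed the end of a reference chromosome. Coordinates are 1-based. Of 74 listed pathway symbols 73 matched a protein-coding gene, and rgs-8.2 did not. Non-coding means any gene type except protein-coding and pseudogene.

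Genes and lists were chosen with earlier results of these data known. Named were the 10 genes; pathway genes with an IDR summit within 1000 bases of a start or 2 from 5000 bases upstream through the gene body; genes at the summits; and genes with as many peaks as gpb-1. The genes with as many separate regions as gpb-1, and egl-8, unc-73 and F44E5.17 were named after their values were seen. Replicate values are from the strongest overlapping entry, or, for overlapping peaks and where stated, from the overlapping entry with the nearest summit. Wilson intervals cover counting error only. Windows were tested on simulated data. Python 3.11.15, SciPy 1.17.1 and matplotlib 3.10.9 were used.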

Additional observations from a re-analysis of the deposited data

How the results depend on the processing

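Of the 10 genes, 4 had an IDR summit within 500 bases of a start, against 5.12% of all protein-coding genes, and 7 within 2000 bases, against 9.57%. The 3 genes that kept one under the single nearest start of any gene compare with 6 when only protein-coding starts competed (4.95% of all), an alternative chosen after seeing the data. With the gene body alone, 3 genes had 4 IDR peaks, against 9 genes with 19, and the share of all genes was 2.22%, against 13.7%. With the stronger 50% of IDR peaks, the 10 genes held 10 of their 19 peaks (52.6%), where the cut itself leaves 50% of all. In that list 4 of the 73 pathway genes had a summit within 1000 bases, against 3.74% of all genes. Wider windows met more motifs. With 100 bases either side, TAATTA was met at 2 of the 19 peaks, against 11.2% of all IDR peaks, and TAATTG at 2, against 13.2%. GAGAGA was met at 12 of the 19, against 40.9%. Over the whole peak, TAATTA was met at 2 of the 19, against 21.7% of all IDR peaks, and TAATTG at 6, against 26.5%. There GAGAGA was met at 14, against 55.1%. The other counts over the 10 genes and the pathway stayed within 1.5 times. For single genes, 57 of 80 counts did so, and 23 did not, most often with the gene body alone. From the 1681 strongest entries of replicate 1 alone gpb-1 had 3 peaks and egl-10 had 2, against 6 and 1, and ric-8 had 1 from either replicate alone, against 2. Of 38 replicate ranks, 27 had a match with 50% reciprocal overlap, and all 27 were unchanged. With summits within 50 bases 27 had a match, and 21 of these were unchanged. Ranks without a match were not compared. With the nearest summit, chosen after seeing the data, 31 of 38 were unchanged. In the ce10 IDR list, compared without coordinates, each of the 19 had a peak on its chromosome within 0.1% of its signal value, and 11 had exactly 1. A match by signal value alone cannot show that the ce10 list holds the same site. No read numbers were given, so what depth limits is unknown. No control was analysed here, so CEH-14 sites and regions recovered in any precipitation cannot be told apart. No paired analysis was possible because there was 1 group and no test.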
